A study of Mus musculus with 14 samples.

Results

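The 10 genes described here make, conjugate and carry bile acids in the liver, or control these steps. They are *Cyp7a1*, *Cyp7b1*, *Cyp8b1* and *Cyp27a1* (synthesis), *Nr1h4* and *Nr0b2* (regulation), *Baat* and *Slc27a5* (conjugation), and *Slc10a1* and *Abcb11* (transport). They were found by gene name among the 55487 genes of a table of read counts, and all 10 were among the 12653 genes with enough reads to be tested. The counts come from the right liver lobe of 14 male TALLYHO/JnG mice aged 8 to 12 weeks, an inbred strain with polygenic obesity and type 2 diabetes in which males become diabetic. Of these mice, 7 received vehicle (water) and 7 received indole at 20 mg/kg, both by oral gavage as 2 doses a day for 7 days. Metabolic tests with further doses followed, and livers were collected on day 11. No lean or non-diabetic strain is part of the comparison.

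Bile acids are made from cholesterol in hepatocytes. The classical route begins with *Cyp7a1*, the rate-limiting hydroxylase, and *Cyp8b1* adds the hydroxyl group that makes cholic acid. An alternative route begins with *Cyp27a1* in mitochondria and continues with *Cyp7b1*. *Slc27a5* (bile acyl-CoA synthetase) activates bile acids and *Baat* joins them to taurine. *Slc10a1* (NTCP) takes bile acids up from portal blood and *Abcb11* (BSEP) pumps them into the bile canaliculus. *Nr1h4* encodes the bile acid receptor FXR, which is known to induce *Abcb11* and *Nr0b2*, and *Nr0b2* encodes SHP, a co-repressor known to dampen *Cyp7a1* and *Cyp8b1*.

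The promoters of 4 of these genes are shown because they belong to the one gene with an unadjusted *p* below 0.05 between the groups (*Cyp27a1*), to a gene of the most strongly correlated pair (*Cyp8b1*), and to a pair of textbook FXR targets (*Nr0b2* and *Abcb11*). RefSeq promoter windows were found for 6 of the 10 genes. Each sequence is the 250 bases before the transcription start in the C57BL/6J reference GRCm38.p6, read 5′ to 3′ on the strand of the gene, and it is not the sequence of the TALLYHO strain. *Cyp27a1* lies on the plus strand (window chr1:74713285-74713534), *Cyp8b1* on the minus strand (chr9:121916306-121916555), *Nr0b2* on the plus strand (chr4:133553126-133553375) and *Abcb11* on the minus strand (chr2:69342617-69342866). Capitals mark matches to the motifs named after the sequences.
Cyp27a1: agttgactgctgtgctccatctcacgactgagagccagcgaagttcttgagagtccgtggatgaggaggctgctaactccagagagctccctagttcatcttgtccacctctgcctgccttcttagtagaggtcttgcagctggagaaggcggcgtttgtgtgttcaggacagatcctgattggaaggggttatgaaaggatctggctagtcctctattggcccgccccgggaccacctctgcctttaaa
Cyp8b1: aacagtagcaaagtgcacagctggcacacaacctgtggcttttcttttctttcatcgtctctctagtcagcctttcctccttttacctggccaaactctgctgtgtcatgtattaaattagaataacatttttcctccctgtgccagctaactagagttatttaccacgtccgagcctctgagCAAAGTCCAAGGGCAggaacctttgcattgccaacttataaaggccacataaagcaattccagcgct
Nr0b2: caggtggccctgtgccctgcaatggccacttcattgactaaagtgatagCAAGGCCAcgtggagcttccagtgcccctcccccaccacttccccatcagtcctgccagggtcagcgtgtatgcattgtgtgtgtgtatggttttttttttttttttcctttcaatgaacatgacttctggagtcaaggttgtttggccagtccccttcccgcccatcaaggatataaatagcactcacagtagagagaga
Abcb11: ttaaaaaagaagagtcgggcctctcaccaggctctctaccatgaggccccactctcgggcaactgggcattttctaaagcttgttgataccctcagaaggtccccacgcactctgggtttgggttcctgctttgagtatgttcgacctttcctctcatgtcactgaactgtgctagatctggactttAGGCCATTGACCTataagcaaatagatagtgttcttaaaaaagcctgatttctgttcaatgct

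4 motifs were searched on both strands of these 250 bases. Their letters were chosen after the promoters had been read, so each match is a description. The FXR inverted repeat (AGGNCA and TGACCT with 1 base between them) was found in the *Abcb11* window, where AGGCCATTGACCT runs from 63 to 51 bases before the start. It was found in 11 of 32851 mouse promoter windows of this length, or 0.0335%. The LRH-1 motif (CAAGGNCA) was found in *Nr0b2*, 201 to 194 bases before the start, and in *Cyp8b1*, 60 to 53 bases before the start. That motif occurs in 5.53% of all windows. In *Cyp8b1* it overlaps an HNF4 motif (CAAAGTCCA) at 67 to 59 bases before the start, and the HNF4 motif occurs in 0.384% of windows. The D box (TTATGTAA), present in 0.819% of windows, was not found in these promoters, and the *Cyp27a1* window held none of the 4 motifs.

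The libraries held between 15197498 and 21060376 reads counted on genes. Levels are given as CPM, the read count of a gene scaled to a common library total, where each total is first multiplied by its TMM factor, a correction for differences in composition between libraries. This factor stood apart in the libraries of mice G1 to G4 (1.073 to 1.083) from that of the other 10 (0.9313 to 1.004). These 4 libraries come from 2 vehicle-treated and 2 indole-treated mice, and the sources give no reason for the difference. For *Baat* these 4 libraries lay between 247 and 275 CPM, and 9 of the other 10 lay above all of them, at up to 332 CPM. For each of *Cyp7a1*, *Cyp8b1*, *Slc27a5* and *Slc10a1* this held for 7 of the 10, and for *Cyp7b1* it held for 0. CPM is divided by this same factor, so lower levels in these 4 libraries are in part built in. The share of all genes tested with such a pattern was not computed. Because the factor stood apart, results are also given for the 10 libraries, a choice made after the data had been seen. Hepatocyte markers summed to between 89590 and 123500 CPM in every library, and 4 of 7 intestine and gallbladder markers were at 0 throughout. The rest of that list was *Fabp2* with 863 to 1160 reads per library, *Slc5a1* with 22 to 80 and *Vil1* with 0 to 9. In bulk tissue, fewer cells of a type and less RNA per cell cannot be told apart.

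Per unit of gene length, the 10 genes covered a wide range of levels in vehicle-treated liver. In RPKM (CPM divided by gene length in kilobases), *Slc10a1* stood at 481±67.3 (SD, *n*=7), *Cyp8b1* at 458±78.8 and *Slc27a5* at 399±24.4. These 3 levels were closer to each other than the larger SD of each neighbouring pair. A gap beyond the spread followed, down to *Cyp27a1* at 158±6.34 and then *Baat* at 144±9.80. *Abcb11* (137±15.7) and *Cyp7a1* (114±67.7) came next and did not differ beyond their spread from their neighbours in this order. The nuclear receptor gene *Nr1h4* was at 48.3±3.27, *Cyp7b1* at 32.5±8.74 and *Nr0b2* at 28.7±9.43, and the last 2 again lay within their spread. The order was the same in the indole group, where *Slc10a1* was at 494±64.8 and *Nr0b2* at 36.2±9.27 on this scale.

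**Figure D1:**
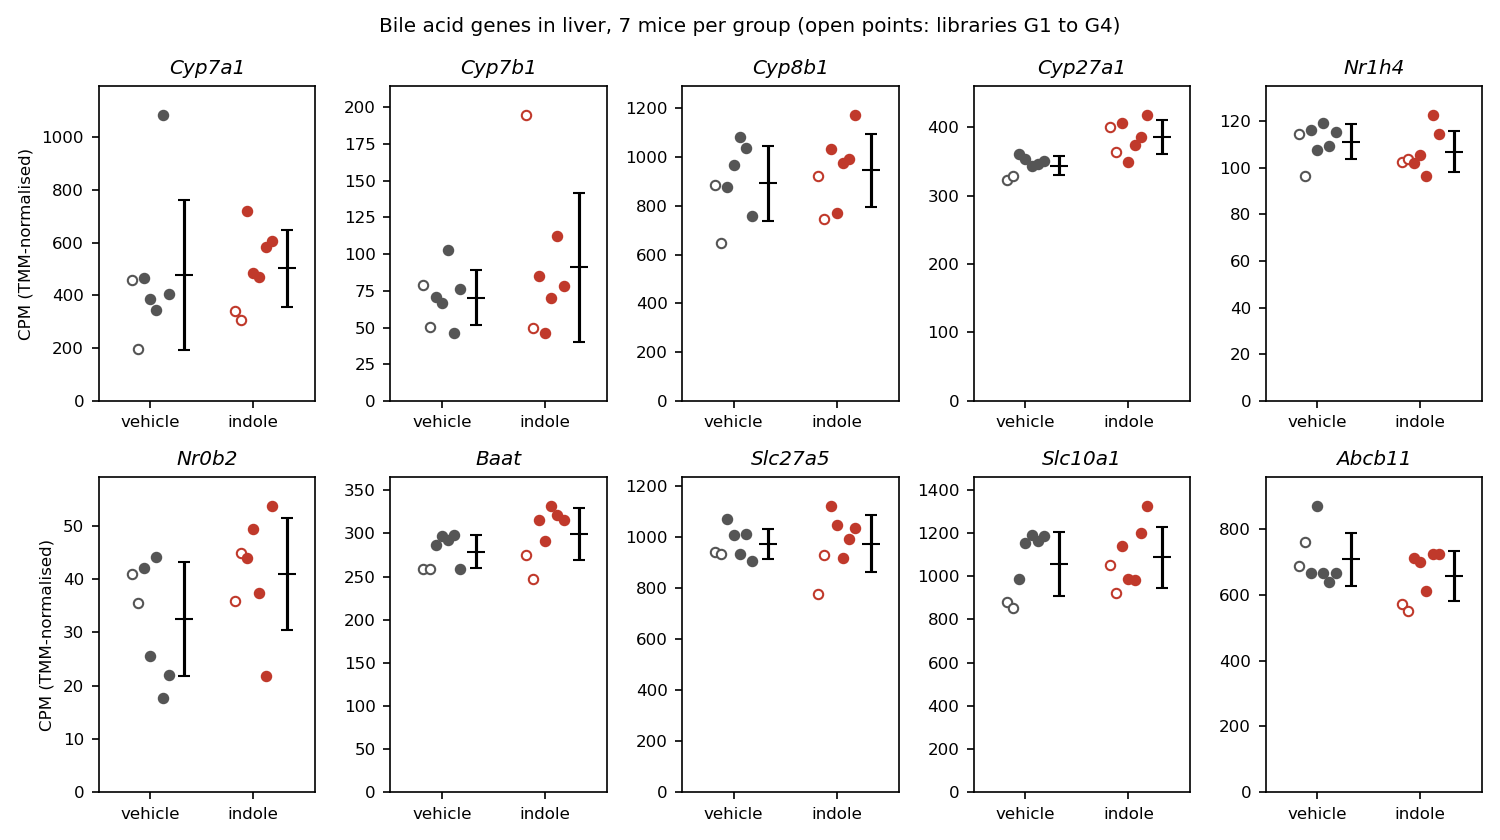
Level of each gene in each mouse (TMM-normalised CPM, vertical axes from 0), with the vehicle group in grey and the indole group in red. Bars show the mean and SD of 7 mice and open points are libraries G1 to G4. The groups overlap for all 10 genes, and for *Cyp27a1* 6 of 7 indole-treated mice exceed all vehicle-treated mice.

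Between the groups, 8 of the 10 genes had a log2 fold change above 0 (indole against vehicle) and 2 below 0, with a median of 0.08. Over all 12653 genes tested, 6489 were above 0 and 6164 below, with a median of 0.00. By edgeR's quasi-likelihood test, 1 of the 10 had an unadjusted *p* below 0.05, against 3.81% of all genes tested. DESeq2 on every gene with a read also gave 1 of the 10, against 3.19% of all genes. The 10 genes were chosen with earlier results of these data known, so these shares are a description. None had a Benjamini–Hochberg adjusted *p* below 0.05 over all genes, and no gene tested with edgeR did. The adjusted *p* from edgeR was 0.998 for each of the 10. No gene of the 10 had groups that did not overlap, which was seen for 6 of all genes tested, or 0.0474%.

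The gene with an unadjusted *p* below 0.05 was *Cyp27a1* (ENSMUSG00000026170, GRCm38 chromosome 1 from 74713574 to 74737892), the enzyme at the start of the alternative route. In vehicle-treated mice its level ran from 323 CPM through a median of 347 to 361 CPM, and in indole-treated mice from 349 through 386 to 418 CPM. Of the indole-treated mice, 6 exceeded all those given vehicle. The exception was G7 at 349 CPM, just above the vehicle median of 347 CPM. The means were 344±13.8 and 385±24.7 CPM (SD, *n*=7 each), which is a log2 fold change of 0.16 (with a standard error, SE, of 0.0635, 95% interval 0.03 to 0.30, edgeR unadjusted *p*=0.0172, adjusted *p*=0.998). This corresponds to 1.12-fold. An exact permutation test of mean log2 CPM over all 3432 relabellings of the mice gave a two-sided *p* of 0.00291 (adjusted over all genes 0.998), where 4.2% of all genes had an exact *p* below 0.05 in either direction and 1.65% in this one. In the 10 libraries the log2 fold change was 0.14, with an unadjusted *p* of 0.0562 from edgeR.

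*Cyp27a1* also had one of the smallest spreads between mice in the table. The SD of its log2 CPM within groups was 0.08, lower than in all but 0.759% of the genes tested. The promoter printed above for this gene held no match to the motifs searched. Red blood cell markers were higher in part of the indole group. All 5 of *Hba-a1*, *Hba-a2*, *Hbb-bs*, *Hbb-bt* and *Alas2* had a log2 fold change above 0 with an unadjusted *p* below 0.05 by edgeR (adjusted 0.998 for each). The exact permutation *p* was 0.0600, 0.0466, 0.0367, 0.0600 and 0.0216 in that order. For each gene, 4 of 7 indole-treated mice exceeded all vehicle-treated mice. These markers summed to 204 to 384 CPM in vehicle-treated and 263 to 1092 CPM in indole-treated mice. Macrophage markers were above 0 for 7 of 8, none with an unadjusted *p* below 0.05, with sums of 69.1 to 201 and 92.6 to 364 CPM. All 14 acute-phase genes were below 0, 2 of them with an unadjusted *p* below 0.05, with sums of 12050 to 23590 and 11160 to 16840 CPM. The highest vehicle sum was that of G11, where *Saa1* stood at 2050 CPM against a vehicle median of 87.2 CPM. For *Saa1* the unadjusted *p* was 0.0194 by edgeR and 0.237 by the exact permutation test. Bile duct markers were below 0 for 6 of 6 with enough reads, with sums of 41.7 to 61.2 and 38.9 to 55.8 CPM. Of these, *Krt19* was at −0.94 with an unadjusted *p* below 0.05 by edgeR, from only 11 to 64 reads per library. The most abundant, *Spp1*, was at −0.15 (edgeR unadjusted *p*=0.186). Endothelial markers were above 0 for 6 of 6 (*Clec4g* at 0.37 with an unadjusted *p* below 0.05), with sums of 58.2 to 97.1 and 67.4 to 132 CPM. With group means removed, *Cyp27a1* had an *r* of −0.218 with a macrophage score and 0.0735 with an acute-phase score over the 14 mice (rho −0.0901 and 0.0769, permutation *p* of *r* 0.509 and 0.789, adjusted over 60 relations 0.804 and 0.933). The part of the red cell, bile duct and endothelial lists in the values of the bile acid genes was not tested.

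*Cyp7a1* (ENSMUSG00000028240, chromosome 4 from 6265612 to 6275633), the rate-limiting enzyme of the classical route, differed far more between mice than between groups. Its level ran from 198 through a median of 405 to 1085 CPM under vehicle and from 308 through 485 to 721 CPM under indole. Both the lowest mouse (G4) and the highest (G11) had received vehicle, and every indole-treated mouse lay between them. The means were 477±283 and 502±147 CPM (SD, *n*=7 each). This gave a log2 fold change of 0.07 (SE 0.325, edgeR unadjusted *p*=0.826), with a 95% interval of −0.63 to 0.78. It was 0.42 without G11 and −0.06 without G4. Across the 14 mice the highest level was 5.48 times the lowest, and the SD of log2 CPM within groups (0.60) exceeded that of 91.7% of the genes tested.

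*Cyp7b1* (ENSMUSG00000039519, chromosome 3 from 18071950 to 18243338), the hydroxylase of the alternative route, showed the same kind of spread. Its level was between 46.1 and 103 CPM in vehicle-treated mice (median 70.8) and between 46.1 and 195 CPM in indole-treated mice (median 78.0). One indole-treated mouse, G2, stood at 195 CPM, above the next highest at 112 CPM, and the rest of the groups overlapped. Its log2 fold change was 0.37 (SE 0.311, edgeR unadjusted *p*=0.256), with a 95% interval from 0.809-fold to 2.07-fold. Without G2 it was 0.07.

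*Cyp8b1* (ENSMUSG00000050445, chromosome 9 from 121914356 to 121916305), which sets the share of cholic acid, was abundant and varied less. Vehicle-treated mice ran from 646 through 885 to 1082 CPM and indole-treated mice from 748 through 976 to 1174 CPM. The ranges overlapped almost throughout, with 1 indole-treated mouse (G14) above all others. Its log2 fold change was 0.08 (SE 0.116, 95% interval −0.16 to 0.32, edgeR unadjusted *p*=0.489).

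Of the regulators, *Nr1h4* (ENSMUSG00000047638, chromosome 10 from 89454234 to 89533585), the gene of FXR, was steady between mice. It ran from 96.6 through 114 to 119 CPM under vehicle and from 96.5 through 104 to 123 CPM in the indole group. The groups covered almost the same range, and the log2 fold change was −0.06 (SE 0.0686, 95% interval −0.20 to 0.09, edgeR unadjusted *p*=0.408). Its target *Nr0b2* (ENSMUSG00000037583, chromosome 4 from 133553376 to 133556536), the gene of SHP, ran from 17.7 through 35.5 to 44.1 CPM in vehicle-treated mice and from 21.9 through 43.9 to 53.7 CPM in indole-treated mice. In both groups a few mice stood low, namely G11, G13 and G9 under vehicle and G12 under indole. The means were 32.5±10.7 and 41.0±10.5 CPM (SD, *n*=7 each), which gives a log2 fold change of 0.34 (SE 0.233, 95% interval −0.17 to 0.84, edgeR unadjusted *p*=0.173). Over 25 alternatives it ran from 0.23 (without G11, edgeR unadjusted *p*=0.292) to 0.46 (limma voom, unadjusted *p*=0.0446), and without G12 it was 0.45 (edgeR unadjusted *p*=0.0493).

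The conjugation enzymes differed by less than their spread between mice. *Baat* (ENSMUSG00000039653, chromosome 4 from 49489422 to 49506557) ran from 258 through 286 to 299 CPM under vehicle and from 247 through 316 to 332 CPM under indole. Of the indole-treated mice, 4 exceeded all vehicle-treated mice and 1 (G3) lay below them. Its log2 fold change was 0.11 (SE 0.0754, 95% interval −0.05 to 0.26, edgeR unadjusted *p*=0.177), and it was 0.14 in the 10 libraries (unadjusted *p*=0.0633). *Slc27a5* (ENSMUSG00000030382, chromosome 7 from 12988346 to 12998192) had means of 973±59.4 and 975±112 CPM (SD, *n*=7 each). Its log2 fold change was 0.00 (SE 0.0797), with a 95% interval of −0.16 to 0.17, or 0.893-fold to 1.13-fold.

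The transporters likewise did not separate the groups. *Slc10a1* (ENSMUSG00000021135, chromosome 12 from 80953183 to 80968705), the uptake carrier, ran from 854 through 1154 to 1189 CPM in vehicle-treated mice and from 921 through 1053 to 1324 CPM in indole-treated mice. The indole median was the lower one while the mean was the higher (1059±148 and 1087±143 CPM, SD, *n*=7 each), and the log2 fold change was 0.04 (SE 0.0993, 95% interval −0.17 to 0.25). *Abcb11* (ENSMUSG00000027048, chromosome 2 from 69238282 to 69342616), the export pump, ran from 638 through 666 to 868 CPM under vehicle and from 551 through 697 to 724 CPM under indole. In the indole group 3 mice (G2, G3 and G8) lay below every vehicle-treated mouse, and 2 vehicle-treated mice (G9 and G4) lay above every indole-treated mouse. The log2 fold change was −0.11 (SE 0.0881, 95% interval −0.29 to 0.08, edgeR unadjusted *p*=0.232), and it was −0.01 in the 10 libraries.

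**Figure D2:**
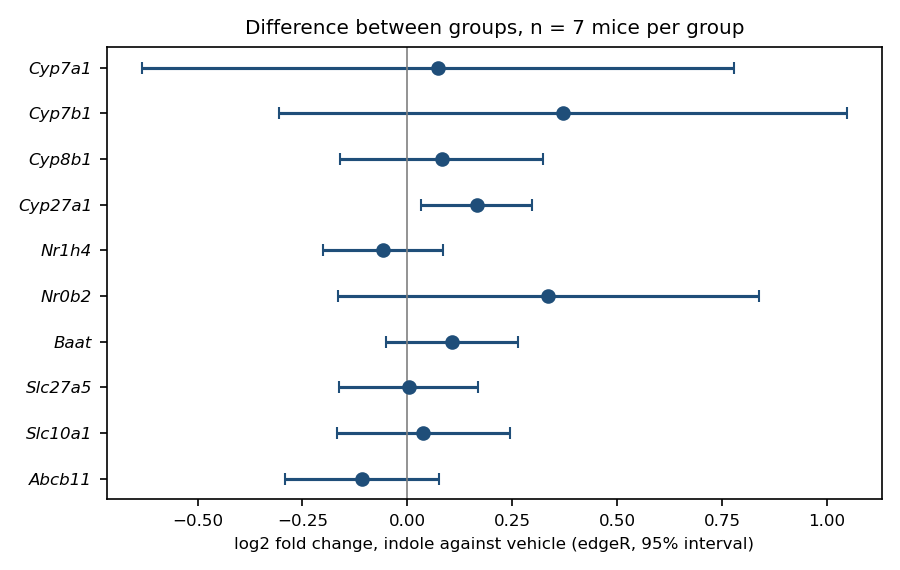
The log2 fold change of each gene (horizontal axis, indole against vehicle), with points for the edgeR estimate and bars for its 95% interval, from 7 mice per group. The interval of *Cyp27a1* (0.03 to 0.30) lies above 0, and the other 9 include 0, with the widest for *Cyp7a1* and *Cyp7b1*.

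The spread between mice differed among the 10 genes. Beside *Cyp7a1*, the SD of log2 CPM within groups was 0.57 for *Cyp7b1* and 0.48 for *Nr0b2*, above 90.2% and 83.7% of the genes tested. For *Cyp27a1*, *Nr1h4*, *Baat* and *Slc27a5* it lay between 0.08 and 0.14, with at most 14.7% of genes having a lower value. The transporters and *Cyp8b1* were between these, from 0.16 (*Abcb11*) to 0.25 (*Cyp8b1*). Each library held at least 3606 reads of *Cyp7a1* and at least 320 of *Nr0b2*.

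**Figure D3:**
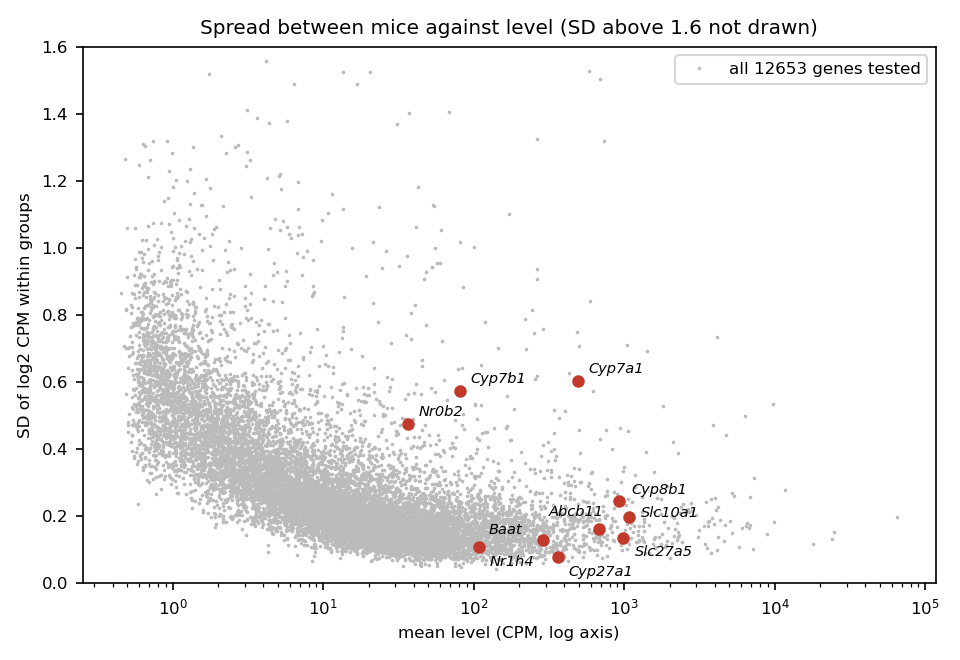
Spread between mice (SD of log2 CPM within groups, vertical axis) against mean level (CPM, log axis) for the 12653 genes tested (grey) and the 10 bile acid genes (red). *Cyp7a1*, *Cyp7b1* and *Nr0b2* lie between 0.48 and 0.60, above most genes of like level, and *Cyp27a1* lies near the lower edge at 0.08.

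Ratios of 2 genes within the same mouse do not depend on how a library is scaled. The *Cyp8b1* to *Cyp7a1* ratio, which sets the branch to cholic acid against the first step, ran from 0.956 in G11 to 3.26 in G4, both vehicle-treated mice. The *Cyp7b1* to *Cyp7a1* ratio, the alternative against the classical route, ran from 0.0425 in G11 to 0.570 in G2. By exact permutation tests adjusted over the 5 ratios computed, 0 passed 0.05, with an adjusted *p* of 0.941 for each ratio to *Cyp7a1*. The *Abcb11* to *Slc10a1* ratio (export against uptake) had a log2 difference of −0.15 (exact permutation *p*=0.213, adjusted 0.533). The *Nr0b2* to *Nr1h4* ratio (target against receptor) had a median of 0.359 under vehicle and 0.431 under indole, a mean log2 difference of 0.42 (exact permutation *p*=0.131, adjusted 0.533). Of the mice, G11 again had the lowest value of this ratio at 0.162. The log2 difference of this last ratio was 0.60 without G12 (exact permutation *p*=0.0146 before adjustment) and 0.29 without G11 (exact permutation *p*=0.265).

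Covariation between mice was measured after the group means had been removed from log2 CPM, so that a shift in mean between the groups could not produce it. A response that is uneven among indole-treated mice can still enter *r*, and so can a relation that differs between the groups. Of the 45 pairs of the 10 genes, 34 had a Pearson *r* above 0, with a median of 0.288 over 14 mice. By permutation of mice within groups, 9 pairs had an unadjusted *p* below 0.05, and 0 had an adjusted *p* below 0.05 over the 45 pairs. The like values for pairs of all genes tested were not computed. Whether these genes covary more than other genes was therefore not tested. In the 10 libraries 1 of the 45 pairs had an unadjusted permutation *p* below 0.05. All levels of a library share its scaling and its composition, so these pairs are not independent of each other or of the difference between libraries described above.

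The pair with the highest *r* was *Cyp8b1* with *Baat* (*r*=0.748, Spearman's rho 0.670, permutation *p*=0.0027 for *r*, adjusted 0.0946, and *p*=0.0139 for rho, adjusted 0.204). Within the groups *r* was 0.811 in vehicle-treated and 0.749 in indole-treated mice. It was 0.649 without the 2 mice farthest from the median of *Cyp8b1* (G4 and G3), and 0.777 in the 10 libraries (permutation *p*=0.0246, adjusted 0.953). When all other genes tested were ordered by their *r* with *Cyp8b1*, *Baat* stood at rank 40 of 12652, and *Slc10a1* at rank 63. In the reverse order, *Cyp8b1* stood at rank 190 for *Baat* and at rank 117 for *Slc10a1*.

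*Slc10a1* followed both *Cyp8b1* (*r*=0.725, rho 0.710, permutation *p*=0.00631 for *r* and 0.00864 for rho, adjusted 0.0946 and 0.194) and *Cyp27a1* (*r*=0.707, rho 0.600, permutation *p*=0.00568 and 0.0272, adjusted 0.0946 and 0.204). These values were 0.543 and 0.653 without the 2 farthest mice, and 0.578 and 0.582 in the 10 libraries, where the permutation *p* was 0.107 and 0.181. The mice with the lowest *Cyp8b1*, G4 and G3, also had low *Slc10a1* and low *Baat*, and both belong to the 4 libraries that stood apart. *Cyp7a1* with *Cyp8b1* had an *r* of 0.641 (rho 0.613, permutation *p*=0.0210 and 0.0269, adjusted 0.141 and 0.204), which became 0.432 without G11 and G4 and 0.311 in the 10 libraries. *Baat* with *Slc10a1* had 0.566 (rho 0.345, permutation *p*=0.0383 and 0.227, adjusted 0.192 and 0.567), and 0.068 in the 10 libraries.

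**Figure D4:**
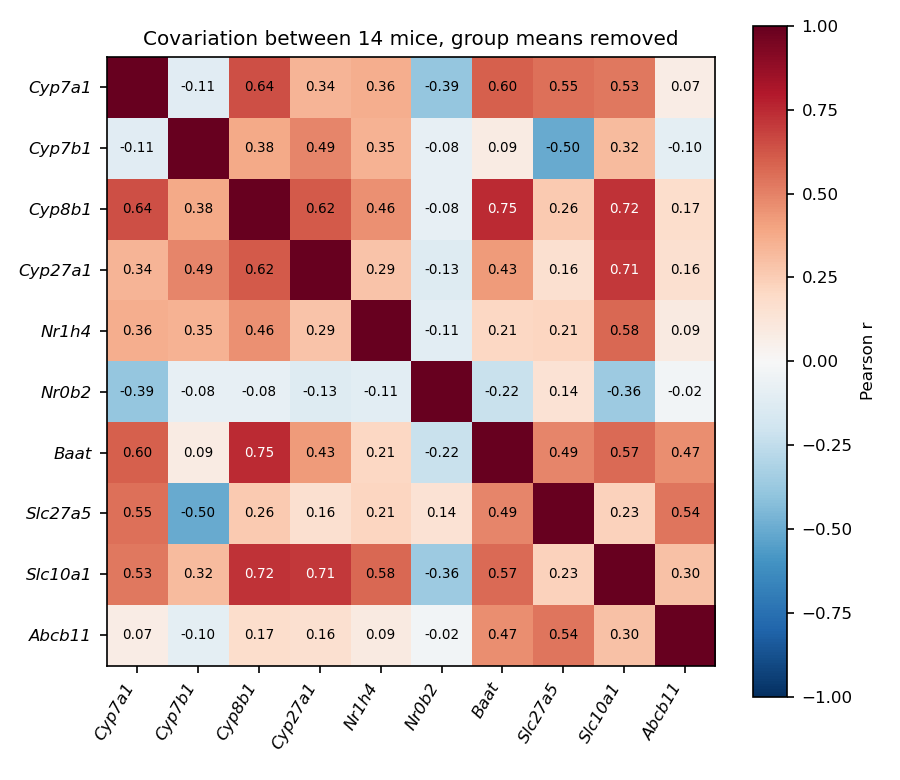
Pearson *r* of each pair of the 10 genes across 14 mice after removal of group means (colour scale from −1 to 1). The 3 highest values are *Cyp8b1* with *Baat* (0.748), *Cyp8b1* with *Slc10a1* (0.725) and *Cyp27a1* with *Slc10a1* (0.707), and *Nr0b2* has the most values below 0.

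SHP is known to repress *Cyp7a1*, and the pair was examined for that reason. *Cyp7a1* with *Nr0b2* had an *r* of −0.387 (rho −0.125, permutation *p*=0.220 and 0.685, adjusted 0.466 and 0.833). It was −0.077 without G11 alone and −0.0136 without G11 and G4, so the value rests on G11. In the 10 libraries, which include G11 and leave out G4, it was −0.448 (permutation *p*=0.266, adjusted 0.953). G11 had the highest *Cyp7a1* (1085 CPM) and the lowest *Nr0b2* (17.7 CPM) of all mice, while G14 had high levels of both (604 and 53.7 CPM). G5 had high *Cyp7a1* (721 CPM) with *Nr0b2* at the indole median (43.9 CPM). Among the receptor and its targets, no pair passed the permutation test either. *Nr1h4* with *Nr0b2* had an *r* of −0.108 (rho 0.204, permutation *p*=0.711 and 0.484), and with *Abcb11* an *r* of 0.0863 (rho 0.209, permutation *p*=0.779 and 0.505). Both changed sign between the groups, a difference that was not tested. In vehicle-treated and indole-treated mice *Nr1h4* had 0.195 and −0.429 with *Nr0b2*, and −0.55 and 0.589 with *Abcb11*. With *Nr0b2* it had 0.278 without G12 and 0.431 without G12 and G4. *Nr0b2* with *Abcb11* had −0.0246 (rho −0.011, permutation *p*=0.935 and 0.975). The matches to an FXR repeat in the *Abcb11* promoter and to an LRH-1 motif in *Nr0b2* stand beside these values without a relation having been tested.

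**Figure D5:**
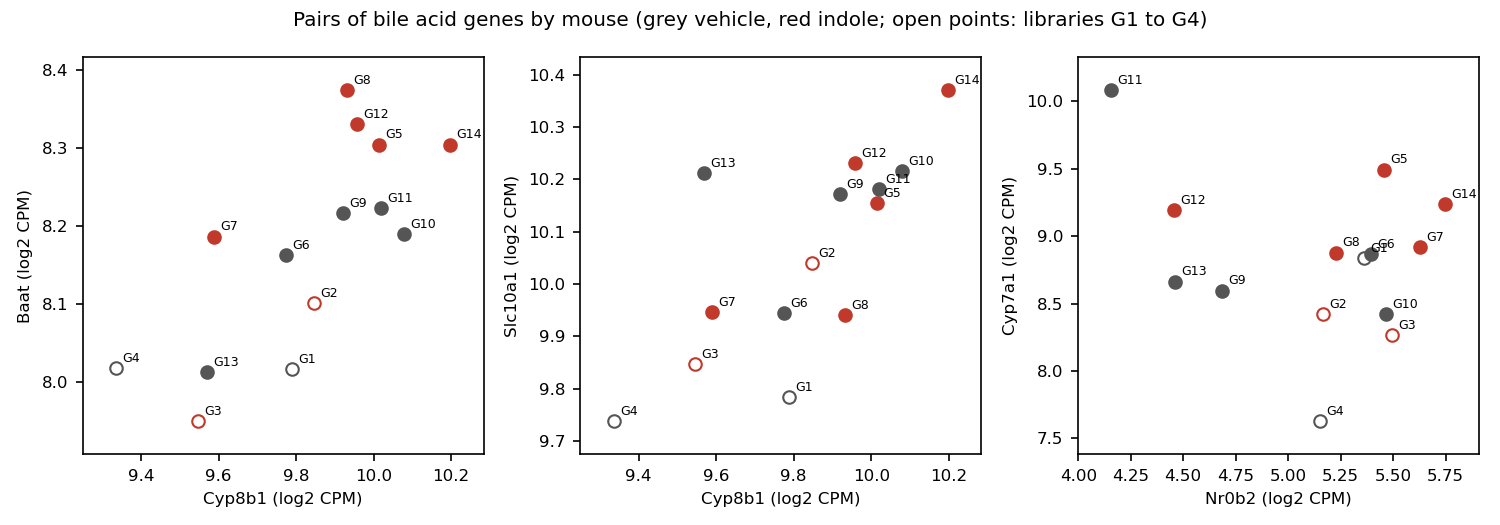
Levels (log2 CPM on both axes) of *Cyp8b1* with *Baat*, *Cyp8b1* with *Slc10a1*, and *Nr0b2* with *Cyp7a1* in each mouse, grey for vehicle and red for indole, with open points for libraries G1 to G4. In the left and middle panels G3 and G4 lie at the lower left, and in the right panel G11 lies alone at the upper left.

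The 10 genes were also set against measures that can differ between mice: the clock genes *Arntl* and *Dbp* and scores of periportal, pericentral, macrophage and acute-phase genes, each score being a mean of standardised log2 CPM. Of these 60 relations, 6 had an unadjusted permutation *p* below 0.05 and 0 had an adjusted *p* below 0.05. The like share for all genes tested was not computed. *Slc27a5* with the periportal score had the highest *r* (0.832, rho 0.653, permutation *p*=0.00173 and 0.0208, adjusted 0.104 and 0.288), which was 0.526 without G2 and G5 and 0.553 in the 10 libraries. *Abcb11* with that score had 0.684 (rho 0.648, permutation *p*=0.00756 and 0.0217, adjusted 0.196 and 0.288), and *Baat* also had 0.684 (rho 0.719, permutation *p*=0.0208 and 0.0089, adjusted 0.288 for both). In the 10 libraries these were 0.615 and 0.519. *Cyp7a1* with the acute-phase score had 0.658 (rho 0.495, permutation *p*=0.025 and 0.0833, adjusted 0.288 and 0.454), which was 0.384 without G11. *Cyp7a1* with *Dbp*, a clock output factor that peaks late in the light phase, had an *r* of −0.688 (rho −0.609, permutation *p*=0.00979 and 0.0281, adjusted 0.196 and 0.288). It was −0.665 in vehicle-treated and −0.749 in indole-treated mice, −0.532 without G11 and G4, and −0.655 in the 10 libraries (permutation *p*=0.0690, adjusted 0.613). *Slc10a1* with *Dbp* had −0.622 (rho −0.508, permutation *p*=0.0288 and 0.0824, adjusted 0.288 and 0.454), and −0.404 in the 10 libraries. The times of day at which individual livers were taken are not in the labels. *Nr1h4* with the macrophage score had an *r* of −0.531 (rho −0.481, permutation *p*=0.0624 and 0.0821, adjusted 0.375 and 0.454), and −0.788 in the 10 libraries (permutation *p*=0.00894, adjusted 0.536). That relation is not among the 6.

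Other genes of bile acid handling were taken from a list of 52, of which 49 had enough reads. Of these, 3 had a log2 fold change above 0 with an unadjusted *p* below 0.05 (edgeR, background 1.53% of all genes in that direction) and 1 was below 0 (background 2.28%). The list was chosen with earlier results of these data known, so these counts describe it and do not test it against the background. *Sult2a8*, a liver sulphotransferase that acts on bile acids, was at 393±97.6 CPM in vehicle-treated and 546±84.5 CPM in indole-treated mice (SD, *n*=7 each). Its log2 fold change was 0.48 (SE 0.138, edgeR unadjusted *p*=0.0029, exact permutation *p*=0.00816, adjusted *p*=0.998), and the vehicle median was exceeded in all 7 indole-treated mice. By edgeR, *Akr1c6*, an aldo-keto reductase, had a log2 fold change of 0.16 (unadjusted *p*=0.0426), and *Slc10a2*, the sodium-dependent bile acid carrier best known from ileum, had one of 0.22 (unadjusted *p*=0.0296). *Abcb4*, the phosphatidylcholine translocator of the canaliculus beside *Abcb11*, was at 354±24.5 and 310±22.5 CPM, which gives a log2 fold change of −0.19 (SE 0.0698, edgeR unadjusted *p*=0.0112, exact permutation *p*=0.00583). All 7 indole-treated mice lay below the vehicle median for this gene. In the 10 libraries its log2 fold change was −0.14 (edgeR unadjusted *p*=0.0767). There, *Akr1c6* had 0.13 (edgeR unadjusted *p*=0.161) and *Sult2a8* had 0.30 (edgeR unadjusted *p*=0.0452). When single mice were left out, the *p* from edgeR ran from 0.0101 to 0.0917 for *Akr1c6* (highest without G9). For *Slc10a2* it ran from 0.0161 to 0.0906 (highest without G7). The number of these pathway genes with an unadjusted *p* below 0.05 ran from 3 to 6 in that procedure. Over 25 alternatives the log2 fold change of *Slc10a2* ran from 0.16 to 0.29.

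By role, the other synthesis and side-chain enzymes numbered 9 above and 6 below 0, with a median log2 fold change of 0.05. The most abundant per length were *Scp2* (log2 fold change 0.15) and *Akr1c6*. The other transporters and detoxification genes numbered 7 above and 10 below, with a median of −0.04. They were led in level by *Ephx1* (log2 fold change 0.19) and *Slco1b2* (0.06), neither with an unadjusted *p* below 0.05. *Slco1a1*, an organic anion uptake carrier named after its values were seen, had a larger spread between mice than 99.4% of genes tested, and lay between 20.5 and 466 CPM. Of the other regulators, 15 were below and 2 above 0, with a median of −0.06 and none with an unadjusted *p* below 0.05. The highest per length over all mice, *Hnf4a* (96.3 RPKM) and *Dbp* (64.8 RPKM, close to *Rxra* at 64.1 RPKM), had log2 fold changes of −0.07 and −0.06.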

How the data were processed

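Strand-specific polyA RNA libraries from 14 livers were aligned by the authors with HISAT2 to GRCm38 (Ensembl annotation), and uniquely mapped reads were carried into the deposited raw counts per gene, without normalisation. The counting tool is not given in the sources used here. All 14 columns were used, and coordinates are those of the table. Totals of 15197498 to 21060376 counts per library limit precision for low genes, with counting error only. Mice were grouped by their labels, which give no batch or pairing.

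Counts were tested with edgeR 4.0.16 (R 4.3.3; TMM, filterByExpr, robust quasi-likelihood fit, Benjamini–Hochberg over 12653 genes). Exact permutation tests used log2 CPM (prior count 2), and ratios of counts used a prior count of 0.5. Correlations used 100000 permutations within groups. The procedures were tested on simulated data. Alternatives were DESeq2 1.42.0, limma 3.58.1 voom, RLE and upper quartile scaling, other filters, 1 surrogate variable (sva 3.50.0), a non-robust fit, and each mouse left out. The 10-library set and the TMM covariate were added after seeing the data. Genes named were all 10 bile acid genes, other pathway genes with an unadjusted *p* below 0.05 or among the 2 highest per length in their list, and for each bile acid gene the 3 highest and 1 lowest correlated genes. *Slco1a1* and *Rxra* met neither criterion and were named after their values were seen. Marker genes enter mostly as sums. Members and lists were chosen with earlier results of these data known.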

Additional observations from a re-analysis of the deposited data

Results flagged for a closer look

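In groups of 7, a mouse was picked out when its distance from the nearest other mouse took up an unusually large share of the whole range of its group (Dixon's criterion). This was applied to 62 sets of values, of which 6 were picked out, where 3.1 would be expected at 1 in 20. Vehicle-treated mouse G11 was far above its group for *Cyp7a1* (share of the range 0.697) and far below it for the *Cyp7b1* to *Cyp7a1* ratio (0.652). Indole-treated mouse G2 was far above its group for that same ratio (0.607). Indole-treated mouse G12 was far below its group for the *Nr0b2* to *Nr1h4* ratio (0.698). The macrophage score was far above the rest of its group in indole-treated mouse G8 (0.641), and the pericentral score was far below in vehicle-treated mouse G13 (0.570).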

How the results depend on the processing

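No paired analysis was possible because each mouse has a replicate name of its own (G1 to G14). The log2 fold changes of *Cyp7b1*, *Cyp8b1*, *Cyp27a1*, *Nr1h4*, *Nr0b2*, *Baat* and *Abcb11* kept their direction in 25 of 25 alternatives each. *Cyp27a1* had an unadjusted *p* of 0.00202 to 0.0562 and an adjusted *p* of 0.619 or more. The count of the 10 genes with an unadjusted *p* below 0.05 was 2 with limma voom and 0 in the 10 libraries. Over all genes it was 1336 without a filter on low counts, and DESeq2 on the edgeR genes gave 1 gene with an adjusted *p* below 0.05. With 1 surrogate variable the log2 fold change was −0.0027 for *Cyp7a1* and −0.0199 for *Slc27a5*, which was −0.0011 with the TMM covariate. In the 10 libraries it was −0.00602 for *Slc10a1*, and the log2 differences of ratios were −0.12 (*Cyp7b1* to *Cyp7a1*) and 0.0093 (*Abcb11* to *Slc10a1*). There, 1 pair and 3 relations with other measures had an unadjusted permutation *p* below 0.05. Without removal of group means, 1 of the 60 relations had an adjusted *p* below 0.05.

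Leaving out each mouse in turn gave 1 to 2 of the 10 genes with an unadjusted *p* below 0.05. The log2 fold change ran from −0.0588 to 0.419 for *Cyp7a1*, −0.0335 to 0.0535 for *Slc27a5*, −0.0126 to 0.0755 for *Slc10a1* and −7.43e-05 to 0.10 for *Slco1b2*. The log2 difference of ratios ran from −0.289 to 0.00601 (*Cyp8b1* to *Cyp7a1*), −0.25 to 0.21 (*Cyp7b1* to *Cyp7a1*), −0.25 to 0.15 (*Cyp27a1* to *Cyp7a1*) and 0.29 to 0.60 (*Nr0b2* to *Nr1h4*). The number of pairs with an adjusted permutation *p* below 0.05 ran from 0 to 1 (1 without G13), and that of the 60 relations from 0 to 1 (1 without G8). The cause of these shifts was not tested.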

Other observations

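For each of the 10 genes, the genes whose levels followed it most closely over the 14 mice were listed by Pearson's *r* of log2 CPM with group means removed, as a description without a test among 12652 genes. *Slc27a5* was followed most closely by *Gnmt* (glycine N-methyltransferase, *r*=0.943, and 0.868 in the 10 libraries), *Hpd* (0.918 and 0.883) and *Vdac1* (0.913 and 0.829). The gene most opposed to it was *Ufl1* (−0.882).

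*Cyp7b1* was followed most closely by *AL590864.1* (0.937, and 0.879 in the 10 libraries), by *Mup20*, a major urinary protein gene (0.870 and 0.886), and by *Cyp2d9*, a cytochrome P450 gene (0.869 and 0.884). *Rdh16* was most opposed (−0.889 and −0.790). *Mup20* and *Cyp2d9* belong to families with near-identical copies, so their read counts are uncertain.

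For *Cyp7a1* the closest were *Arfgap2* (0.877), *Pqbp1* (0.874) and *Pgk1-rs7* (0.865), and *Pan2* was most opposed (−0.893). *Baat* was followed by *Dck* (0.931), *Dync1i2* (0.917) and *Psmd12* (0.902), with *Igip* opposed (−0.953). *Nr1h4* had *Fabp7* as its most opposed gene (−0.916, and −0.956 in the 10 libraries), and *Trim37* as its closest (0.882 and 0.911). *Nr0b2* was followed by *Cav2* (0.851 and 0.880), and *Pde4b* was most opposed (−0.830 and −0.874). *Cyp8b1* had *2900009J06Rik* (0.873), *Cyp27a1* had *Rad1* (0.866), *Slc10a1* had *Miga2* (0.897) and *Abcb11* had *Tmem266* (0.855) as the closest gene. With 14 mice and 12652 genes ranked, high values of *r* were found for each of the 10 genes, and the lowest of the 10 highest values was 0.851.

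*Nr0b2* with the clock gene *Dbp* had an *r* of 0.558 over the 14 mice (rho 0.495, permutation *p*=0.0572 and 0.0909, adjusted over 60 relations 0.375 and 0.454), and 0.475 without G12 and G11. The value was 0.973 in the 7 vehicle-treated and −0.105 in the 7 indole-treated mice, a difference that was not tested. Contrasts of this size were not particular to this relation. *Nr0b2* with *Arntl* had −0.695 and 0.723, and *Cyp7a1* with *Abcb11* had −0.493 and 0.923.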
